A study of Sus scrofa with 10 samples.

Results

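Cholesterol synthesis genes were followed in the ovaries of 10 gilts, of which 5 had received rpFSH (the rpFSH group) and 5 saline (the control group). Of 7 listed genes, 6 had a protein-coding locus among the 43499 loci of the table, 19972 of which were protein-coding. HMGCS1, FDFT1, SQLE, DHCR7 and INSIG1 were found by their symbol, and IDI1 by the Ensembl gene identifier that the table gives in place of a symbol. LSS, the lanosterol synthase, had no locus by either way and was not analysed here. Control 2 and rpFSH 1 are the pigs numbered 2 and 1 in their groups. In each of the 6 genes they had the highest values of the 10 pigs, so that 1 pig of each group stood far above the rest. No gene had an unadjusted P under 0.05 between the groups in edgeR (lowest 0.246), which does not show that the groups were alike.

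All the gilts shared 1 birth day and housing, and had the same genetic background. Altrenogest, an orally active progestin that holds back oestrus, was fed to both groups for 18 days, at a daily 20 mg and starting at an age of 210 days, and was then withheld for 2 days. The rpFSH pigs then received 1000 IU of recombinant pig FSH made in CHO cells (written fpFSH in the sample labels), and the control pigs, labelled untreated, received saline. Ovaries were taken at 234 days of age after the surface follicles had been removed, so the libraries hold what remained of the ovary, with 1 library per pig. Total counts were between 64873797 and 75114003 per pig, and each value of a listed gene rested on between 233 and 139048 counts. Of the markers of other ovarian cells, the granulosa, theca and oocyte lists were detected in every pig, whereas the 3 adipocyte genes ADIPOQ, PLIN1 and LEP were below 0.11 FPKM in all of them. FPKM is a count scaled by the length of the locus and the depth of the library, which allows levels of different genes to be set side by side.

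Cells build cholesterol from acetyl-CoA through mevalonate and isoprenoid units to squalene, which is closed into lanosterol and trimmed to cholesterol. Transcription of these genes is raised by the SREBP factors when membrane sterol is low: SCAP carries SREBP to the Golgi for cleavage, and the INSIG proteins hold SCAP back when sterol is plentiful. In the ovary cholesterol is the substrate of all steroid hormones, and the corpus luteum uses large amounts of it, from lipoproteins and from its own synthesis, to make progesterone.

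The 6 loci lie on 6 different chromosomes, in the coordinates of Sscrofa11.1 that the table uses. HMGCS1, the HMG-CoA synthase that opens the mevalonate pathway, is at chr16:27936229-27957227 on the minus strand. IDI1, the isomerase of the isoprenoid units, is at chr10:68534517-68539280 on the plus strand. FDFT1, the squalene synthase, is at chr14:14967273-15104179 on the plus strand, in a locus wider than the RefSeq gene at chr14:14976259-15010701. SQLE, the squalene epoxidase and a rate-controlling step, is at chr4:14667848-14700221 on the minus strand. DHCR7, a reductase at the end of the pathway whose loss in people causes Smith-Lemli-Opitz syndrome, is at chr2:2357714-2394851 on the plus strand, also wider than the RefSeq gene at chr2:2377352-2391846. INSIG1, the sterol-induced anchor of SCAP in the endoplasmic reticulum and itself a target of SREBP, is at chr18:2885494-2898914 on the minus strand. The values are of whole loci, and reads of other transcripts inside the wider loci cannot be told apart from those of the named gene.

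HMGCS1 was at 9.45, 265, 7.84, 6.47 and 8.25 FPKM in control 1 to control 5. In rpFSH 1 to rpFSH 5 it was at 73.5, 6.66, 3.74, 20.5 and 6.58 FPKM. The value of control 2 was 3.61 times that of rpFSH 1, and the other 8 pigs of both groups overlapped between 3.74 and 20.5 FPKM. The group means were 59.4 ± 115 FPKM in the control group and 22.2 ± 29.4 FPKM in the rpFSH group (SD, n = 5 each).

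IDI1 was at 7.59, 179, 5.77, 6.09 and 6.08 FPKM in the control pigs in the same order. It was at 217, 4.35, 3.40, 11.7 and 5.12 FPKM in the rpFSH pigs. Here rpFSH 1 was the higher of the 2 high pigs, and rpFSH 4 came next, above the remaining 7. The means were 40.8 ± 77.0 and 48.4 ± 94.4 FPKM (SD, n = 5 each).

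FDFT1 showed the narrowest spread of the 6 genes as a ratio of highest to lowest value, though not by the SD in FPKM. It was at 3.61, 15.0, 3.53, 3.49 and 3.46 FPKM in the control pigs and at 14.1, 2.86, 3.98, 4.22 and 2.75 FPKM in the rpFSH pigs. Both high pigs thus had nearly the same value, and the 4 other control pigs had an SD of 0.0635 FPKM. The means were 5.81 ± 5.12 and 5.59 ± 4.81 FPKM (SD, n = 5 each).

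SQLE was at 3.16, 22.8, 2.50, 2.78 and 3.18 FPKM in the control pigs and at 21.3, 2.17, 2.04, 4.49 and 2.45 FPKM in the rpFSH pigs. Control 2 and rpFSH 1 were again at nearly 1 level, with rpFSH 4 next. The means were 6.88 ± 8.89 and 6.48 ± 8.33 FPKM (SD, n = 5 each).

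DHCR7 had the lowest mean over all 10 pigs of the 6 genes, and was at 1.42, 8.39, 1.38, 1.37 and 0.772 FPKM in the control pigs. In the rpFSH pigs it was at 15.8, 1.06, 0.543, 2.48 and 0.892 FPKM, so that rpFSH 1 was the highest pig. The means were 2.67 ± 3.21 and 4.15 ± 6.54 FPKM (SD, n = 5 each).

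INSIG1 was at 1.55, 26.4, 1.73, 1.35 and 2.29 FPKM in the control pigs and at 7.82, 1.64, 1.19, 2.08 and 1.71 FPKM in the rpFSH pigs. Control 2 had 3.38 times the value of rpFSH 1, and control 5, not rpFSH 4, ranked 3. The means were 6.67 ± 11.06 and 2.89 ± 2.78 FPKM (SD, n = 5 each). Over the 6 genes rpFSH 4 ranked 3 in 5, and rpFSH 3 was the lowest pig in 5, with rpFSH 5 the lowest for FDFT1.

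**Figure D1:**
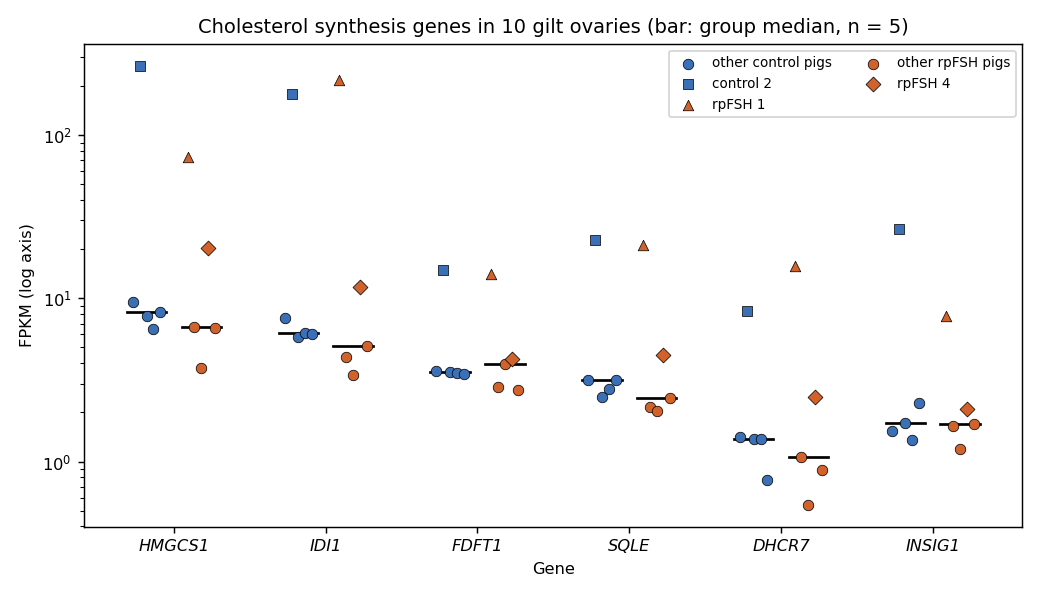
FPKM on a log axis of the 6 cholesterol synthesis genes with a locus, in 5 control pigs (blue) and 5 rpFSH pigs (orange); the bars are the group medians, and control 2, rpFSH 1 and rpFSH 4 have their own symbols. Control 2 and rpFSH 1 were the 2 highest pigs in all 6 genes, while the other pigs of both groups overlapped.

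Together the 6 genes held 0.310% of all counts in control 2 and 0.167% in rpFSH 1. Their share was 0.0322% in rpFSH 4 and between 0.0135 and 0.0195% in the remaining 7 pigs. Control 2 and rpFSH 1 were the 2 highest pigs in 6 of 6 listed genes. The same 2 pigs were highest in 1846 of the 15170 protein-coding loci that reached 0.1 FPKM on average over the pigs, or 12.2%. Because these 2 libraries stood apart in opposite groups, each comparison of the groups was also made without them, a choice made after the values were seen.

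The excess in these pigs differed from gene to gene. Relative to the median of the other 8 pigs, control 2 was 36.6 times as high in HMGCS1, 30.1 in IDI1, 15.8 in INSIG1, 8.62 in SQLE, 6.89 in DHCR7 and 4.27 in FDFT1. The corresponding ratios of rpFSH 1 were 10.1 in HMGCS1, 36.6 in IDI1, 4.68 in INSIG1, 8.06 in SQLE, 12.95 in DHCR7 and 4.02 in FDFT1. The ratios of FDFT1 and SQLE were close in both pigs, those of HMGCS1 and INSIG1 were larger in control 2, and those of IDI1 and DHCR7 were larger in rpFSH 1. Each of these pigs is 1 library, so the differences between them have no replicate check.

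Ratios of 2 genes within a library also differed between the 2 pigs. HMGCS1 was between 1.06 and 1.74 times IDI1 in the other 8 pigs and 1.48 times in control 2, but 0.338 times in rpFSH 1. The ratio of INSIG1 to FDFT1 was between 0.299 and 0.661 in the other 8 pigs and 0.554 in rpFSH 1, but 1.77 in control 2. The ratio of SQLE to FDFT1 was 1.52 in control 2 and 1.51 in rpFSH 1, both above the range from 0.512 to 1.06 of the other 8.

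In the order of mean FPKM over all 10 pigs, IDI1 came first with 44.6, followed by HMGCS1 with 40.8, SQLE with 6.68, FDFT1 with 5.70, INSIG1 with 4.78 and DHCR7 with 3.41. Neighbours in this order were compared within pigs by two-sided exact sign-flip permutation tests on log2 FPKM, adjusted over the 5 pairs. HMGCS1 was above SQLE in 10 of 10 pigs, by 1.73 ± 0.73 on the log2 scale (SD over pigs, exact sign-flip test, adjusted p = 0.00977). FDFT1 was above INSIG1 in 9 of 10 pigs, by 0.85 ± 0.68 (same exact test, adjusted p = 0.0244). For the other 3 pairs the difference did not exceed the spread between pigs, with adjusted p = 0.385 for IDI1 and HMGCS1, 0.385 for SQLE and FDFT1 and 0.156 for INSIG1 and DHCR7 (same exact test). The means were raised by the high pigs, and by the median over 10 pigs HMGCS1 (8.04 FPKM) was above IDI1 (6.09 FPKM), as it was in 9 of the 10 pigs, and FDFT1 (3.57 FPKM) was above SQLE (2.97 FPKM).

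Whether rpFSH treatment changed these genes was tested with edgeR's quasi-likelihood test on the counts, over all 15170 protein-coding loci. The call rule of the study's methods, an unadjusted P under 0.05 with a log2 fold change above 1 or below -1, was met by 0 of the 6 genes, and by 468 of all loci tested, or 3.09%. At an unadjusted P under 0.05 alone, 0 of the 6 genes and 4.76% of all loci passed. After Benjamini-Hochberg adjustment no locus passed (0%, smallest adjusted p = 0.992 in edgeR). Limma on log2 (FPKM + 1) called 0 loci after adjustment as well, and DESeq2 called 86, but DESeq2 gave no P for any of the 6 genes.

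The log2 fold changes of rpFSH against control in edgeR were -1.37 (SE 1.25) for HMGCS1, 0.29 (SE 1.44) for IDI1 and 0.00 (SE 0.57) for FDFT1. They were -0.03 (SE 0.85) for SQLE, 0.68 (SE 0.98) for DHCR7 and -1.14 (SE 0.93) for INSIG1. The lowest unadjusted P among them was 0.246, for INSIG1, and every adjusted p was at least 0.999 in edgeR. The median over the 6 genes was -0.01, as it was over all loci tested. Two-sided exact permutation tests of the mean FPKM over all assignments of the pigs to the groups gave p between 0.659 and 0.746, where 0.00794 was the smallest possible. A standard error near 1 on the log2 scale is as large as a 2-fold difference, and a p above the threshold does not show that the groups were alike.

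Without control 2 and rpFSH 1 the estimates of 5 genes moved towards 0, FDFT1 being the exception, and the errors of all 6 shrank. The log2 fold changes were then 0.29 (SE 0.45) for HMGCS1, 0.02 (SE 0.35) for IDI1 and 0.06 (SE 0.16) for FDFT1. They were 0.02 (SE 0.24) for SQLE, 0.08 (SE 0.44) for DHCR7 and 0.02 (SE 0.21) for INSIG1. The lowest unadjusted P of edgeR was 0.537, for HMGCS1, against 5.15% of all loci with P under 0.05. In FPKM, the 4 other control pigs and the 4 other rpFSH pigs had means of 8.004 ± 1.23 and 9.36 ± 7.52 for HMGCS1 and of 6.38 ± 0.816 and 6.15 ± 3.79 for IDI1 (SD, n = 4 each). The exact permutation p of the 6 genes was between 0.771 and 1, with 0.0286 the smallest that 4 against 4 pigs allow. In both genes rpFSH 4 was the highest of these 8 pigs.

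Leaving out only 1 of the 2 high pigs turned the direction of the comparison. Without control 2 the log2 fold change of IDI1 was 2.97 (SE 1.31, edgeR unadjusted P = 0.0482, adjusted p = 0.908), which met the call rule. Without rpFSH 1 it was -2.64 (SE 1.24, edgeR unadjusted P = 0.0604, adjusted p = 0.918). The median of the 6 genes went from 1.37 without control 2 to -1.56 without rpFSH 1.

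**Figure D2:**
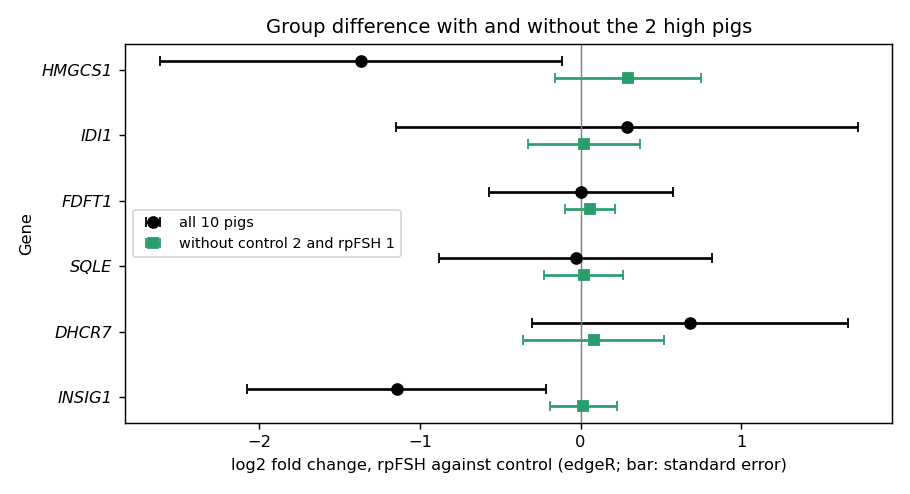
Log2 fold change of rpFSH against control by edgeR for the 6 genes, with its standard error as a bar, over all 10 pigs (black circles) and without control 2 and rpFSH 1 (green squares). HMGCS1 moved from -1.37 to 0.29 and INSIG1 from -1.14 to 0.02, and the standard error was smaller without the 2 pigs in each gene.

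The genes also varied together among the other 8 pigs. Control 2 and rpFSH 1 form a cluster of their own and set the correlation over all 10 pigs, whose median over the 15 pairs was 0.954, so it was computed in the other 8. There the Pearson r of log2 (FPKM + 1) had a median of 0.637 and was positive in 14 of 15 pairs, and the Spearman rho had a median of 0.595. For comparison, the median r of the 6 genes with all other loci tested was 0.0805. By exact permutation over all orderings of the 8 pigs, 5 of 15 pairs had an adjusted p under 0.05 for r and 1 pair for rho.

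IDI1 and SQLE were the closest pair, with r = 0.967 (exact permutation p = 9.92e-05, adjusted p = 0.00149) and rho = 0.929 (exact permutation p = 0.00223, adjusted p = 0.0335). Without the 2 pigs farthest from the median of IDI1, their r was 0.889. HMGCS1 had r = 0.960 with IDI1 (exact permutation p = 0.000769, adjusted p = 0.00521) and rho = 0.738 (exact permutation p = 0.0458, adjusted p = 0.172), and r was 0.772 without the 2 farthest pigs. HMGCS1 and SQLE had r = 0.929 (exact permutation p = 0.00104, adjusted p = 0.00521) and rho = 0.810 (exact permutation p = 0.0218, adjusted p = 0.140), and r was 0.714 without the 2 farthest pigs.

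DHCR7 had r = 0.892 with IDI1 (exact permutation p = 0.00585, adjusted p = 0.0219) and rho = 0.786 (exact permutation p = 0.0279, adjusted p = 0.140). Its r with HMGCS1 was 0.883 (exact permutation p = 0.00799, adjusted p = 0.0240), with rho = 0.690 (exact permutation p = 0.0694, adjusted p = 0.173). These fell to 0.438 and 0.201 without the 2 farthest pigs, so they rest on those pigs. FDFT1 and INSIG1 took part in none of the 5 pairs, and r between them was -0.0172 (exact permutation p = 0.966) with rho = -0.143 (exact permutation p = 0.752). Over all 15 pairs the median r was 0.331 without the 2 farthest pigs of each pair and 0.432 without rpFSH 4. Within the groups, as deviations from the group mean, it was 0.632.

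The rest of the pathway was read from fixed lists of 33 loci, of which 0 met the call rule and 0 had an unadjusted P under 0.05 in edgeR. The lowest unadjusted P of edgeR among them was 0.0589, for INSIG2, with an adjusted p of 1.00. The median log2 fold change of these loci was 0.02, against -0.01 for all loci tested. Control 2 and rpFSH 1 were the 2 highest pigs in 25 of the 33, beside the 12.2% of all loci. As a check of the lists, 36 tested loci carried the KEGG terms for steroid or terpenoid backbone biosynthesis in the table. Of these 25 had the same 2 pigs highest and 0 met the call rule. These KEGG loci include listed genes.

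Among the 6 other loci from acetyl-CoA to the isoprenoid diphosphates, all had control 2 and rpFSH 1 highest. FDPS, the farnesyl diphosphate synthase, had the largest excess and the highest level of the list, in a locus that it shares with RUSC1, with 36.1 FPKM in control 2 and 36.8 FPKM in rpFSH 1 against 2.41 to 7.07 FPKM in the other 8 pigs. ACAT2, the acetoacetyl-CoA thiolase, had the largest log2 fold change of this list, 0.75 (SE 0.64), with 9.55 FPKM in control 2 and 21.5 FPKM in rpFSH 1. GGPS1, which makes the side product geranylgeranyl diphosphate, was only 1.35 and 1.42 times the median of the other 8 in the 2 pigs. MVK, the mevalonate kinase, had the lowest level of the list, and was at 5.72 and 5.62 FPKM in the 2 pigs against 0.600 to 1.48 FPKM in the other 8. PMVK, the phosphomevalonate kinase, had the lowest log2 fold change, -0.34 (SE 0.24).

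Of the 9 loci from squalene to cholesterol, 8 had the same 2 pigs highest. EBP, a sterol isomerase, had the largest log2 fold change of this list, 0.63 (SE 1.15), with 21.9 FPKM in control 2 and 37.4 FPKM in rpFSH 1. SC5D, a desaturase, had the lowest, -0.47 (SE 0.77), and was at 15.9 and 8.83 FPKM in the 2 pigs. NSDHL, a sterol dehydrogenase and the lowest of the list in level, was at 4.42 and 6.85 FPKM against 1.25 to 2.06 FPKM in the other 8. LBR, a nuclear envelope protein with sterol reductase activity, was the exception, with its lowest value, 3.77 FPKM, in control 2 and 4.64 FPKM in rpFSH 1, below the 4.87 to 6.25 FPKM of the other 8. Without the 2 pigs LBR was higher in the rpFSH pigs by 0.26 (SE 0.11, log2 scale), with an unadjusted P of 0.0495 and an adjusted p of 0.864 in edgeR.

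Of the 7 loci of sterol sensing, 4 had control 2 and rpFSH 1 highest. SCAP, the escort of SREBP, had the largest excess in the 2 pigs and the largest log2 fold change of the list, 0.60 (SE 0.86), with 30.5 and 53.5 FPKM against 3.18 to 8.71 FPKM in the other 8 pigs. SREBF2, which encodes the SREBP that drives cholesterol synthesis, had a smaller excess, in a locus that it shares with MIR33A, with 7.96 and 10.4 FPKM against 3.37 to 4.87 FPKM. SREBF1, which encodes the SREBP of fatty acid synthesis, was at 2.51 and 6.55 FPKM against 1.37 to 2.34 FPKM. INSIG2, the relative of INSIG1, had the lowest log2 fold change of this list, -0.33 (SE 0.15). Its value was 5.89 FPKM in control 2 but 3.46 FPKM in rpFSH 1, within the range of the other 8. MBTPS1, the Golgi protease that makes the first cut in SREBP, had the highest mean level of the list and stayed between 14.5 and 21.7 FPKM in all pigs.

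All 6 loci of sterol uptake, transport and esterification had the same 2 pigs highest. SCARB1, the receptor that takes cholesterol esters from HDL, was at 183 FPKM in control 2 and 123 FPKM in rpFSH 1, with 28.8 FPKM in rpFSH 4 and at most 7.73 FPKM in the other 7. STARD4, a soluble sterol carrier, had the lowest log2 fold change of the list, -0.67 (SE 1.02), and was 14.1 and 7.43 times the median of the other 8. NPC2, the sterol carrier of the lysosome, had 96.3 and 56.5 FPKM, the latter close to the 54.0 FPKM of rpFSH 4, and its log2 fold change was 0.02 (SE 0.51).

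Of 6 loci of efflux and liver X receptor targets, 2 had these pigs highest, NR1H3 and CH25H, whose loci also hold MADD and LIPA. ABCA1, the pump that loads cholesterol onto apolipoproteins, was at 6.49 FPKM in control 2 and 4.91 FPKM in rpFSH 1 against 5.68 to 17.8 FPKM in the other 8. It had the largest log2 fold change of this list, 0.33 (SE 0.36). The lowest was that of the CH25H and LIPA locus, -0.16 (SE 0.54), which counts in both of the last 2 lists. ABCG1, which passes cholesterol to HDL, was the lowest of the list in level, with 3.64 FPKM in control 2 and its lowest value, 1.19 FPKM, in rpFSH 1. MYLIP, a ligase that marks lipoprotein receptors for breakdown, was at 3.46 FPKM in control 2 and at its lowest, 2.10 FPKM, in rpFSH 1.

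**Figure D3:**
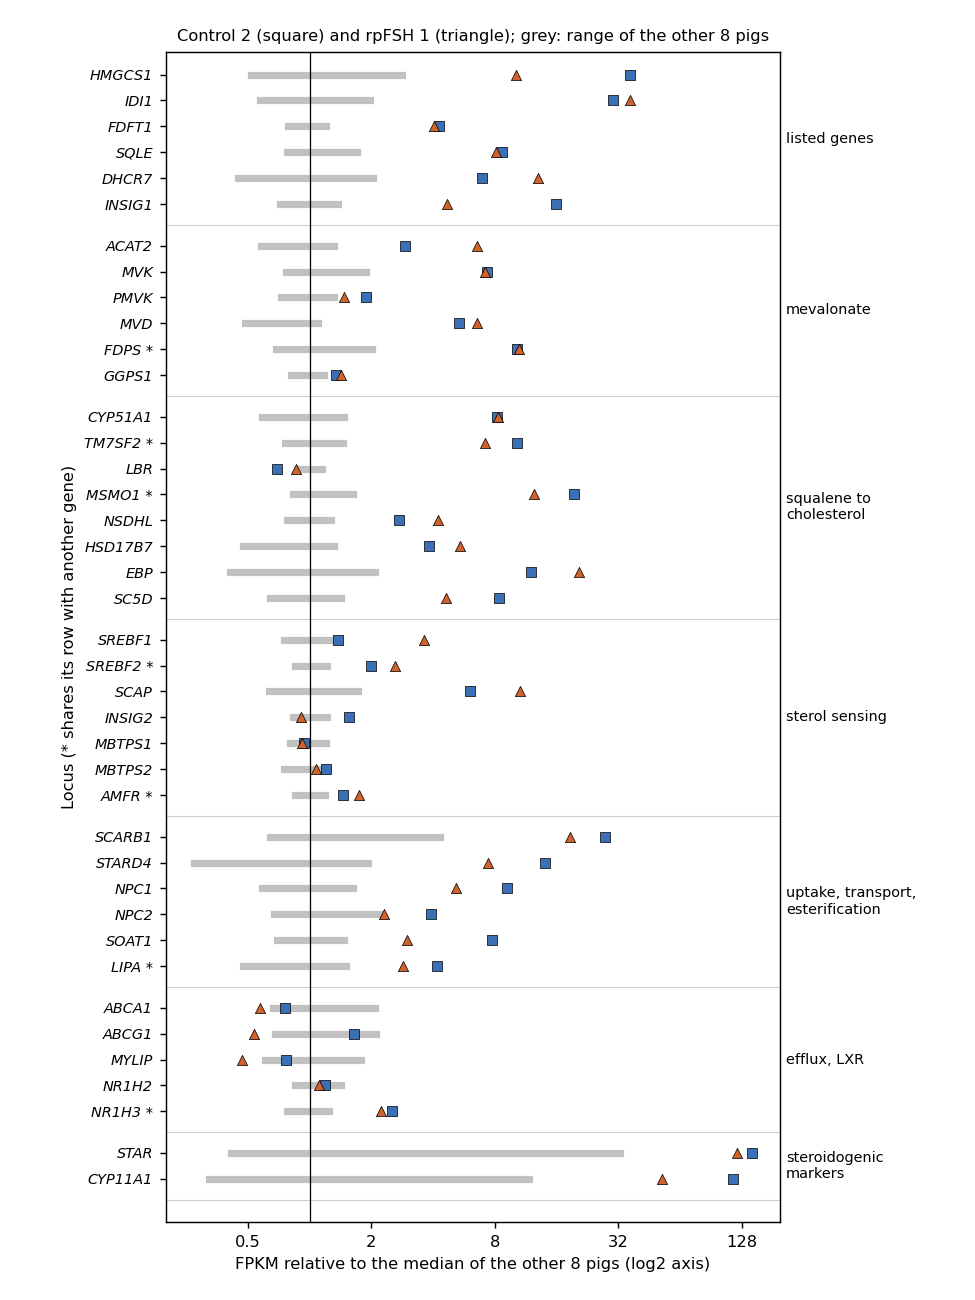
FPKM of control 2 (squares) and rpFSH 1 (triangles) relative to the median of the other 8 pigs, on a log2 axis, for the 6 listed genes, loci of the wider lists and 2 steroidogenic markers; grey bars are the range of the other 8 pigs, and a star marks a locus shared with another gene. The synthesis enzymes lie mostly to the right of the grey range in both pigs, up to 36.6 times. LBR, MBTPS1, ABCA1 and MYLIP lie to the left of 1 in both.

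The luteal or steroidogenic markers were high in the same pigs. The summed FPKM of STAR, CYP11A1 and SCARB1, which bring cholesterol in and start steroid synthesis, was 2473 in control 2, 1359 in rpFSH 1 and 328 in rpFSH 4, against 10.6 to 47.6 in the other 7 pigs. No locus was found for HSD3B1, the 4th marker of this list, and SCARB1 also belongs to the uptake list. STAR, the carrier of cholesterol into mitochondria, was at 532 FPKM in control 2, 448 FPKM in rpFSH 1 and 121 FPKM in rpFSH 4, and at most 5.67 FPKM in the other 7. CYP11A1, which cuts the side chain of cholesterol, was at 1758 FPKM in control 2, 787 FPKM in rpFSH 1 and 178 FPKM in rpFSH 4. The 3 pigs with the most of these markers were the 3 with the highest sum over the 6 genes, 516, 350 and 45.5 FPKM, against 14.9 to 26.8 FPKM in the other 7. In the 8 pigs other than control 2 and rpFSH 1, the mean profile of the 6 genes had r = 0.826 and rho = 0.429 with the mean profile of the marker list, and r = 0.611 without the 2 farthest pigs, given as a description. In whole tissue, more cells of a type and more RNA per cell cannot be told apart, and the part of the marker list in the levels of the 6 genes was not tested.

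For the other cell types, the marker sums of the same 2 pigs were as follows. The granulosa sum of FSHR, CYP19A1, AMH (in a locus shared with SF3A2) and INHA was lowest, 3.41 FPKM, in control 2 but 75.3 FPKM in rpFSH 1, and between 7.39 and 81.3 FPKM in the other 8. INHA, an inhibin subunit, made up most of the sum in rpFSH 1, with 68.7 FPKM there and 1.34 FPKM in control 2. FSHR, the receptor of FSH, was 0.0885 and 0.541 times the median of the other 8 in control 2 and rpFSH 1, and CYP19A1, the aromatase, was 0.0392 and 0.407 times, so both genes were below that median in both pigs. The AMH locus (0.540 and 1.06 times) and INHA (0.0659 and 3.38 times) were below it in control 2 but not in rpFSH 1. No locus was found for FOXL2, the remaining marker of the granulosa list. The theca sum of CYP17A1, INSL3 and LHCGR was 8.55 FPKM in control 2 and 31.96 FPKM in rpFSH 1, within the range from 4.38 to 226 FPKM of the other 8. INSL3, the peptide hormone of theca cells, was at 0.351 FPKM in control 2 and at 17.1 FPKM in rpFSH 1. CYP17A1 was at 5.46 and 7.55 FPKM in these pigs, within the range of the other 8. LHCGR was at 2.74 FPKM in control 2, but its 7.32 FPKM in rpFSH 1 was above the 0.907 to 5.18 FPKM of the other 8. The oocyte sum of ZP3, GDF9 and BMP15 was lowest in control 2 as well, with 3.41 FPKM against 5.50 to 13.8 FPKM in the other 8 and 8.94 FPKM in rpFSH 1. The endothelial sum was between 20.1 and 54.8 FPKM over the other 8 pigs, with both high pigs inside that range. The leukocyte sum was 26.3 FPKM in control 2 and 45.5 FPKM in rpFSH 1 against 27.1 to 37.3 FPKM. Most of it came from the CD68 locus, shared with EIF4A1, with 22.4 and 44.4 FPKM in the 2 pigs. PTPRC (3.06 and 0.968 FPKM) and CD3E (0.775 and 0.127 FPKM) went the other way, highest of all pigs in control 2 and lowest in rpFSH 1. Control 2 was the lowest of all pigs in the stroma sum, with 131 FPKM against 257 to 817 FPKM in the other 8, and in the smooth muscle sum, with 48.3 FPKM against 88.5 to 1114 FPKM. In rpFSH 1 these sums were 432 and 119 FPKM, within both ranges. The sum of the ciliated epithelium markers was 12.6 FPKM in control 2 and 3.47 FPKM in rpFSH 1, and its highest value was 25.4 FPKM in control 5. FOXJ1, a regulator of motile cilia, was at 5.82 FPKM in control 2 and 14.1 FPKM in control 5, and at most 0.212 FPKM in the remaining 8 pigs. The liver sum of ALB and APOA1 was highest in control 2, with 23.5 FPKM against 4.31 to 16.8 FPKM in the other 8, and was 13.5 FPKM in rpFSH 1. Most of it came from APOA1, with 23.3 and 13.2 FPKM in the 2 pigs. The part of these differences in the levels of the 6 genes was not tested.

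**Figure D4:**
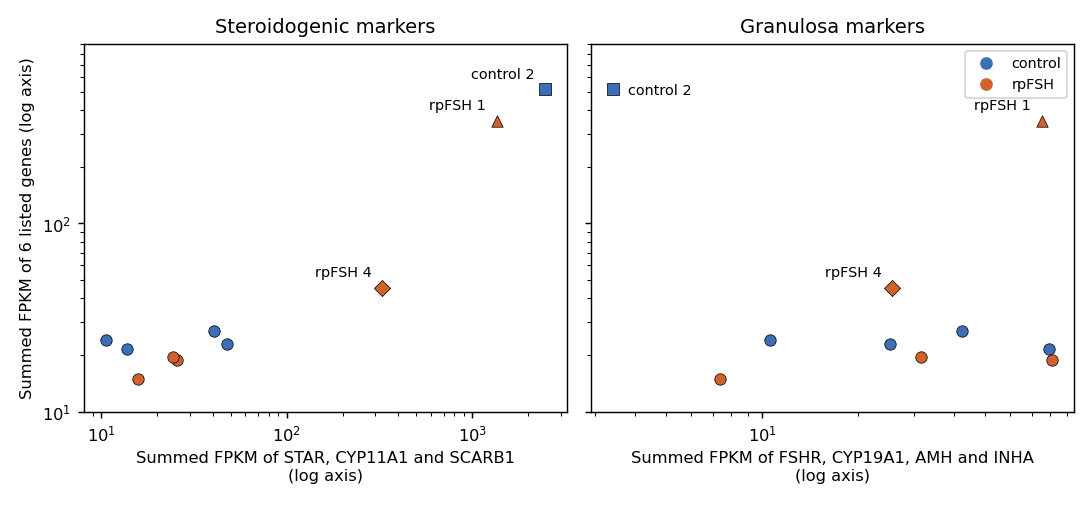
Summed FPKM of the 6 listed genes in each pig (vertical log axis) against the summed FPKM of 3 steroidogenic markers (left, log axis) and of 4 granulosa markers (right, log axis), in control pigs (blue) and rpFSH pigs (orange). Control 2, rpFSH 1 and rpFSH 4 are highest on the left horizontal axis, with 2473, 1359 and 328 FPKM, whereas on the right control 2 is the lowest pig with 3.41 FPKM.

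The 10 protein-coding loci most like the 6 genes were ranked among 11309 loci of at least 1 mean FPKM by r with the mean of their standardised profiles over all 10 pigs, a measure set mainly by the 2 high pigs. ACLY, the ATP citrate lyase that makes cytosolic acetyl-CoA, came first with r = 0.996 and was at 182 FPKM in control 2, 111 FPKM in rpFSH 1 and 7.86 to 18.0 FPKM in the other 8. AACS, the acetoacetyl-CoA synthetase, had r = 0.993. Of the wider lists, the MSMO1 (r = 0.995), FDPS (r = 0.991), MVK (r = 0.990) and SC5D (r = 0.988) loci were among the 10. RGCC (r = 0.996), MCRIP2 (r = 0.994), the TMEM14C locus (r = 0.989) and NLGN1 (r = 0.988) made up the rest. When r was taken over the other 8 pigs alone, RGCC ranked 2, the FDPS locus 9, ACLY 29, MCRIP2 31, the MSMO1 locus 46, MVK 58, SC5D 91, AACS 98, the TMEM14C locus 155 and NLGN1 272 among the same loci. Among the 33 loci of the wider lists, LBR had the lowest r, -0.708.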

How the data were processed

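Ovary RNA of 10 gilts was sequenced, with 1 library per pig and groups taken from the sample labels. Per the methods and the submitters' processing notes, the authors mapped reads to Sscrofa11.1 (HISAT2 2.0 and Bowtie 0.12.2 in the notes) and assembled loci with StringTie 1.3.0, whose FPKM they deposited. Whole-number counts for the same loci stand beside the FPKM in the deposited table. The methods describe a second cDNA strand labelled with dUTP. How the counts were made, and whether strand was used in them, is not given in the sources used here. The labels name poly(A) selection and the methods rRNA removal. Columns of the authors' own comparison (fold changes and P values) were not used.

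The counts of 15170 protein-coding loci (average of 0.1 FPKM or more over the pigs) were tested with edgeR 4.0.16 (quasi-likelihood, TMM, two-sided) in R 4.3.3, with Benjamini-Hochberg adjustment over all of them, and the SE is the log2 fold change divided by the root of F. Alternatives were DESeq2 1.42.0, limma 3.58.1 on log2 (FPKM + 1 or 0.1), other scalings and filters, a replicate block, and leaving out each pig. The tests were checked on simulated counts in which 200 of 15170 loci had a log2 change of 2. Of the changed loci edgeR called 99.5%, limma 72.5% and DESeq2 99.0%. Of the unchanged loci 4.67%, 5.20% and 6.18% had P under 0.05. The simulation gave every locus the same dispersion and had no outlying pigs, so it does not cover genes such as the 6 listed.

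The members and lists were chosen with earlier results of these data known. Named are all members with a locus, the list genes with the lowest or highest level or fold change, and the 10 loci most like the members. LBR, GGPS1, SREBF2, NR1H3, MYLIP and single markers were named after their values were seen. Correlations, planned over 10 pigs and 21 pairs, were computed over 8 pigs and 15 pairs with every ordering, since 2 pigs formed a separate cluster and 1 gene had no locus. Promoter motifs were not analysed here, and 1 locus of the lists is counted but not reported singly here.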

Additional observations from a re-analysis of the deposited data

Results flagged for a closer look

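In each of the 6 cholesterol synthesis genes, 1 pig of each group lay far from the 4 others of its group by Dixon's ratio, the gap to the nearest pig divided by the range of the group (95% critical value for 5 pigs). For normally distributed values chance exceeds it in about 1 of 20 groups, and whether that rate holds for FPKM was not tested. The 12 values below come from only 2 pigs. In the control group the pig was control 2 each time, with ratios of 0.988 for HMGCS1, 0.989 for IDI1, 0.987 for FDFT1, 0.966 for SQLE, 0.915 for DHCR7 and 0.963 for INSIG1. In the rpFSH group it was rpFSH 1 each time, with 0.760 for HMGCS1, 0.961 for IDI1, 0.871 for FDFT1, 0.872 for SQLE, 0.872 for DHCR7 and 0.866 for INSIG1. The ratio of HMGCS1 in the rpFSH group was the smallest, since rpFSH 4 was also raised there, to 20.5 FPKM.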

How the results depend on the processing

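The comparison rests on 5 pigs per group, and the 2 high pigs set both the size and the direction of each fold change. When each pig was left out in turn, the number of the 6 genes that met the call rule ranged from 0 to 1 (IDI1, without control 2), as did that of the wider lists (SCARB1, without control 2, log2 fold change 2.48, edgeR unadjusted P = 0.0311, adjusted p = 0.908), and the median log2 fold change of the 6 genes from -1.56 to 1.37. The log2 fold changes then ranged from -2.58 to 1.52 for HMGCS1, -2.64 to 2.97 for IDI1, -0.66 to 0.73 for FDFT1, -1.21 to 1.21 for SQLE, -1.01 to 1.79 for DHCR7 and -1.92 to 0.80 for INSIG1. The differences in mean FPKM ranged from -50.5 to 14.2 for HMGCS1, -34.7 to 42.0 for IDI1, -2.36 to 2.07 for FDFT1, -4.09 to 3.58 for SQLE, -1.42 to 2.91 for DHCR7 and -5.11 to 1.16 for INSIG1. 

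The number of all loci that met the call rule was 468 in edgeR and 17 in limma on log2 (FPKM + 1), 188 with + 0.1, 16 after quantile normalization, 145 at a mean FPKM of at least 1, 302 without control 2 and rpFSH 1 (18 in limma) and 183 without rpFSH 4 as well. The replicate numbers do not pair the pigs: same-numbered pigs had r between -0.270 and -0.0285, and 0 pigs correlated best with their own number. A replicate block called 190 loci, none of the 6 genes, and turned SQLE to 0.0050. DESeq2 gave no P for the 6 genes, for 15 of the 33 wider loci and for 326 loci in all.

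Other settings also changed directions, and the cause was not tested. In limma, IDI1 was -0.078 and FDFT1 -0.046 on log2 (FPKM + 1), and -0.11 and -0.058 with + 0.1, and FDFT1 was -0.031 at a mean FPKM of at least 1. Without control 2 and rpFSH 1, edgeR gave 0.29 for HMGCS1, 0.019 for SQLE and 0.018 for INSIG1, and limma -0.17 for IDI1, -0.037 for FDFT1 and -0.051 for DHCR7. The difference in mean FPKM was then 1.35 for HMGCS1 and -0.232 for IDI1. By group medians the FPKM differences were -0.971 for IDI1, 0.457 for FDFT1 and -0.317 for DHCR7. Without rpFSH 4 as well, a choice made after its values were seen, the log2 fold changes were -0.47 for IDI1 (SE 0.18, edgeR unadjusted P = 0.0309, adjusted p = 0.996), -0.033 for FDFT1 and -0.47 for DHCR7. The FPKM differences were then -2.09 for IDI1 (exact permutation p = 0.0286, the smallest possible with the pigs left) and -0.403 for DHCR7. In IDI1 and DHCR7 rpFSH 4 was the highest of the 8 pigs, so leaving it out lowered the rpFSH mean. No decrease is read from these values. By medians, within the control group or by the medians of either group, 2 of 6 genes kept their place in the order of levels. The median pairwise correlation, 0.637 in 8 pigs, was 0.954 in all 10 pigs.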

Other observations

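The table holds other loci that carry the name of a listed gene or lie inside it. A locus of unknown strand at chr10:68538400-68538807, inside IDI1, was at 35.1 FPKM in control 2 and 19.1 FPKM in rpFSH 1, against 0.378 to 2.18 FPKM in the other 8 pigs, on 13 to 1224 counts per pig. A locus on the strand opposite to SQLE, at chr4:14676900-14678787, was at 3.63 FPKM in control 2 and 2.74 FPKM in rpFSH 1, with 1.99 FPKM in rpFSH 2 the next highest value. Without a stated use of strand in the counting, its reads cannot be told apart from those of SQLE. A second locus that carries the name DHCR7, on the same strand at chr2:2324865-2370720, overlaps the one used in the comparisons. It ends before the start of the RefSeq gene at chr2:2377352-2391846, so it does not overlap the RefSeq gene. It was at 1.32 FPKM in control 2 and 1.71 FPKM in rpFSH 1, with its highest value, 2.77 FPKM, in control 4, so the pattern of the 2 high pigs was not seen there.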
